A study of Mus musculus with 2 samples.

Results

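The pore-forming and accessory subunits of potassium, sodium and calcium channels were followed through the cell classes of the embryonic mouse cerebral cortex at embryonic day (E) 16.5. A gene was taken when its symbol was *Kcn* with a letter code and a number, *Scn* with a number and the letter a or b, or *Cacna1* with a letter. It also needed at least 20 UMIs (unique molecular identifiers, 1 for each captured transcript molecule) in each library, over cells with 1500 to 60000 UMIs and under 10% mitochondrial UMIs. By this rule 84 genes were taken, of 116 with such a symbol and of 32285 genes listed: 67 potassium, 9 sodium and 8 calcium channel genes. The UMI totals chose the genes, so that they are detected in both libraries is no result. Just inside the limit lay *Kcnk5* with 22 and 42 UMIs, *Kcnj12* with 23 and 30 and *Kcng2* with 29 and 43 (replicates 1 and 2). Just outside lay *Kcne4* with 15 and 14, *Kcnj14* with 14 and 14 and *Cacna1f* with 19 and 22. None of the 4 *Kcne* genes reached it. The 84 genes took 0.412% of the UMIs of these cells in replicate 1 and 0.380% in replicate 2. At a limit of 50 UMIs, 73 genes would have been taken.

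The series holds 2 single-cell libraries (10x Genomics, 3′ v3.1 chemistry) of cerebral cortex dissociated with papain, both labelled EomesDot and of wild-type (WT) genotype, with no treatment given. The sources differ on the mice, since the labels carry the name EomesDot and the study's text names C57BL/6J mice, so the line is uncertain. The labels give neither the sex of the embryos nor whether a library holds cells of 1 embryo or several. The numbers 1 and 2 only name the libraries. There is no second genotype, so the comparisons set classes of cells within these libraries side by side (n = 2). Errors and p-values measure only how far these libraries differ beyond a shift common to all classes. This spread is pooled over all classes fitted and may be technical. The comparisons share classes and are not independent of each other. Values are given as UMIs scaled to 1000000 UMIs of a class (CPM), for replicate 1 and then replicate 2. The tests compare a gene between classes, not genes with each other. Sums over genes and orders of genes by CPM are descriptions.

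Ion channels let ions pass the membrane through a gated pore. Sodium channels carry the upstroke of the action potential, potassium channels set the resting potential and repolarise the cell, and calcium channels couple depolarisation to transmitter release, transcription and contraction. In the embryonic cortex radial glial cells (RGCs) divide at the ventricle, and intermediate progenitor cells (IPCs) and newborn neurons arise from them. Inhibitory interneurons migrate in from the medial (MGE) and caudal (CGE) ganglionic eminences, so that cells before and after the onset of excitability lie side by side. Blood vessels, meninges and microglia use channels of their own, such as the ATP-sensitive potassium channels of mural cells.

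Cells were named from lists of 8 marker genes, none of which is a channel gene: a cell needed at least 3 markers of a list and at least 2 more than of any other list. Without doublets, replicate 1 held 5534 cells (median 5493 UMIs) and replicate 2 held 9136 (median 4728 UMIs). No name was given to 61.4% and 62.0% of them. A class was used if both libraries had 20 or more of its cells. The 13 such classes held from 21 erythroid-like to 1369 upper-layer neuron-like cells, and their summed UMIs ran from 110989 to 8543152, so that small classes are measured less precisely than large ones. The libraries shared 40 barcodes, of which 15 were kept in both. *Neurod6*, a gene of excitatory neurons that is in no list, stood at 998 and 1045 CPM in upper-layer and at 52.9 and 55.7 CPM in MGE interneuron-like cells. Striatal projection neuron-like cells also carried deep-layer markers, mainly *Foxp2*, and they are cells of a tissue next to the cortex.

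The summed level of the channel genes was higher in neuron classes than in progenitor classes. The 67 potassium channel genes summed to 4033 and 3945 CPM in deep-layer neuron-like, 1791 and 1746 CPM in RGC-like and 239 and 281 CPM in endothelial-like cells. The 9 sodium channel genes summed to 619 and 534 CPM in deep-layer neuron-like and 491 and 458 CPM in MGE interneuron-like cells, against 47.4 and 46.9 CPM in RGC-like cells. The neuron classes lay above RGC-like and IPC-like cells in both libraries for each of the 3 kinds. The 8 calcium channel genes summed to 1490.5 and 1323 CPM in deep-layer neuron-like, 857 and 783 CPM in CGE interneuron-like and 102 and 88.9 CPM in RGC-like cells. Calcium channel transcripts also stood above RGC-like cells in mural-like (383 and 410.3 CPM), fibroblast-like (394 and 435 CPM) and endothelial-like cells (179 and 219 CPM). Sodium channel transcripts did not clearly do so, at 47.5 and 37.3 CPM in mural-like and 51.3 and 37.3 CPM in fibroblast-like cells. Erythroid-like cells, which should lack these channels, held 16 UMIs of all 84 genes in replicate 1 and 6 in replicate 2. That is 2.80% and 0.744% of the summed CPM of upper-layer neuron-like cells. The excitatory neuron genes *Neurod6* (9.01 and 51.0 CPM) and *Neurod2* (0 and 34.0 CPM) also occurred in erythroid-like cells, in replicate 2 at a larger share of their upper-layer levels (1045 and 447 CPM) than the channel genes.

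**Figure D1:**
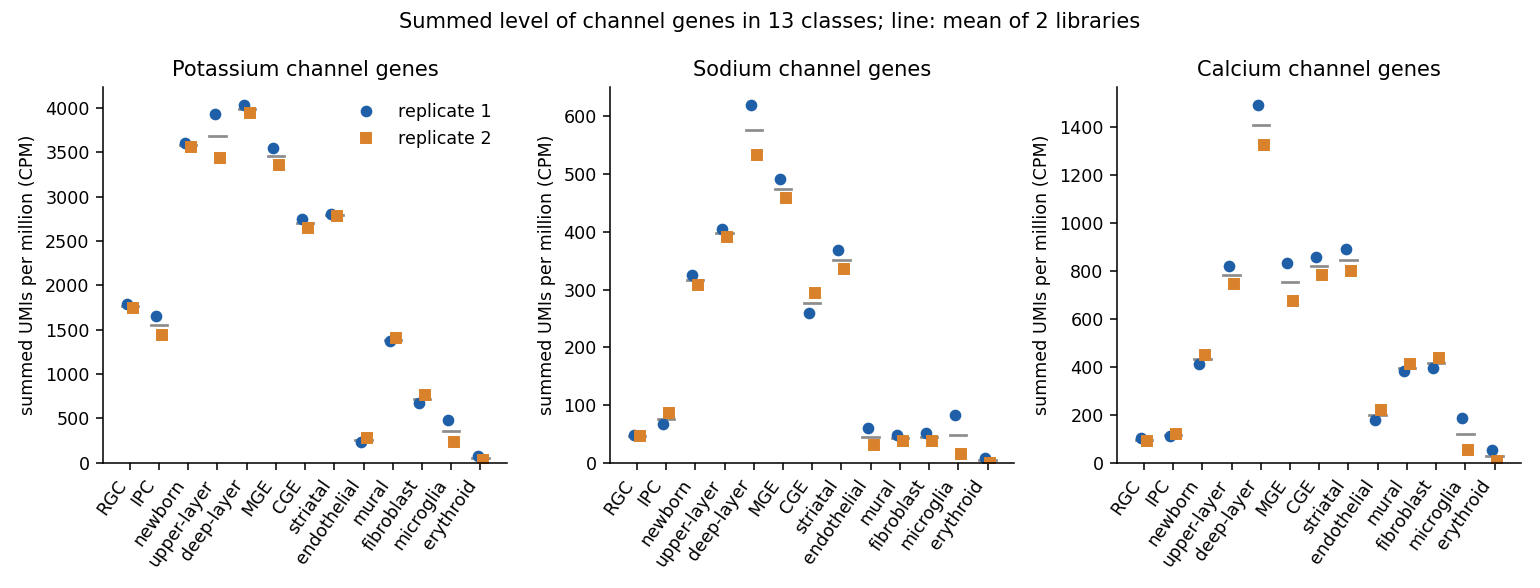
Summed level (CPM, y axes starting at 0) of the 67 potassium, 9 sodium and 8 calcium channel genes in the 13 classes (x axes). Circles are replicate 1, squares replicate 2 and lines the mean of both; the neuron classes from newborn to striatal lie above RGC-like and IPC-like cells in both libraries for each kind.

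Of the 84 genes, 64 reached a mean of 10 CPM in some class and 27 reached 100 CPM, while 20 stayed under 10 CPM in all classes. For 74 genes there were enough counts for a test (at least 10 counts in at least 2 of the 26 sums of library and class). In 49 of these 74, or 66.2%, both libraries of the highest class lay above every library of every other class, beside 40.8% of all 14409 genes tested. This is a description without a test, and a gene high in a single class passes the filter through that class. Such genes were most numerous in deep-layer neuron-like cells (10 genes, 13.5% of those tested, beside 3.45% of all genes), MGE interneuron-like cells (7, beside 2.32%), striatal projection neuron-like cells (6, beside 2.30%) and CGE interneuron-like cells (5, beside 1.93%). There were 3 in RGC-like cells (4.05%, beside 6.23% of all genes) and none in IPC-like (2.89% of all genes) or erythroid-like cells (0.486%). The lower library of the highest class exceeded the next library over 100 times for *Kcnj8* in mural-like cells (123.7-fold) and 28.1-fold for *Kcnk13* in microglia-like cells. For many neuronal genes it did so by under 1.5-fold, such as *Kcnh7* (1.01-fold) and *Scn3a* (1.06-fold).

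**Figure D2:**
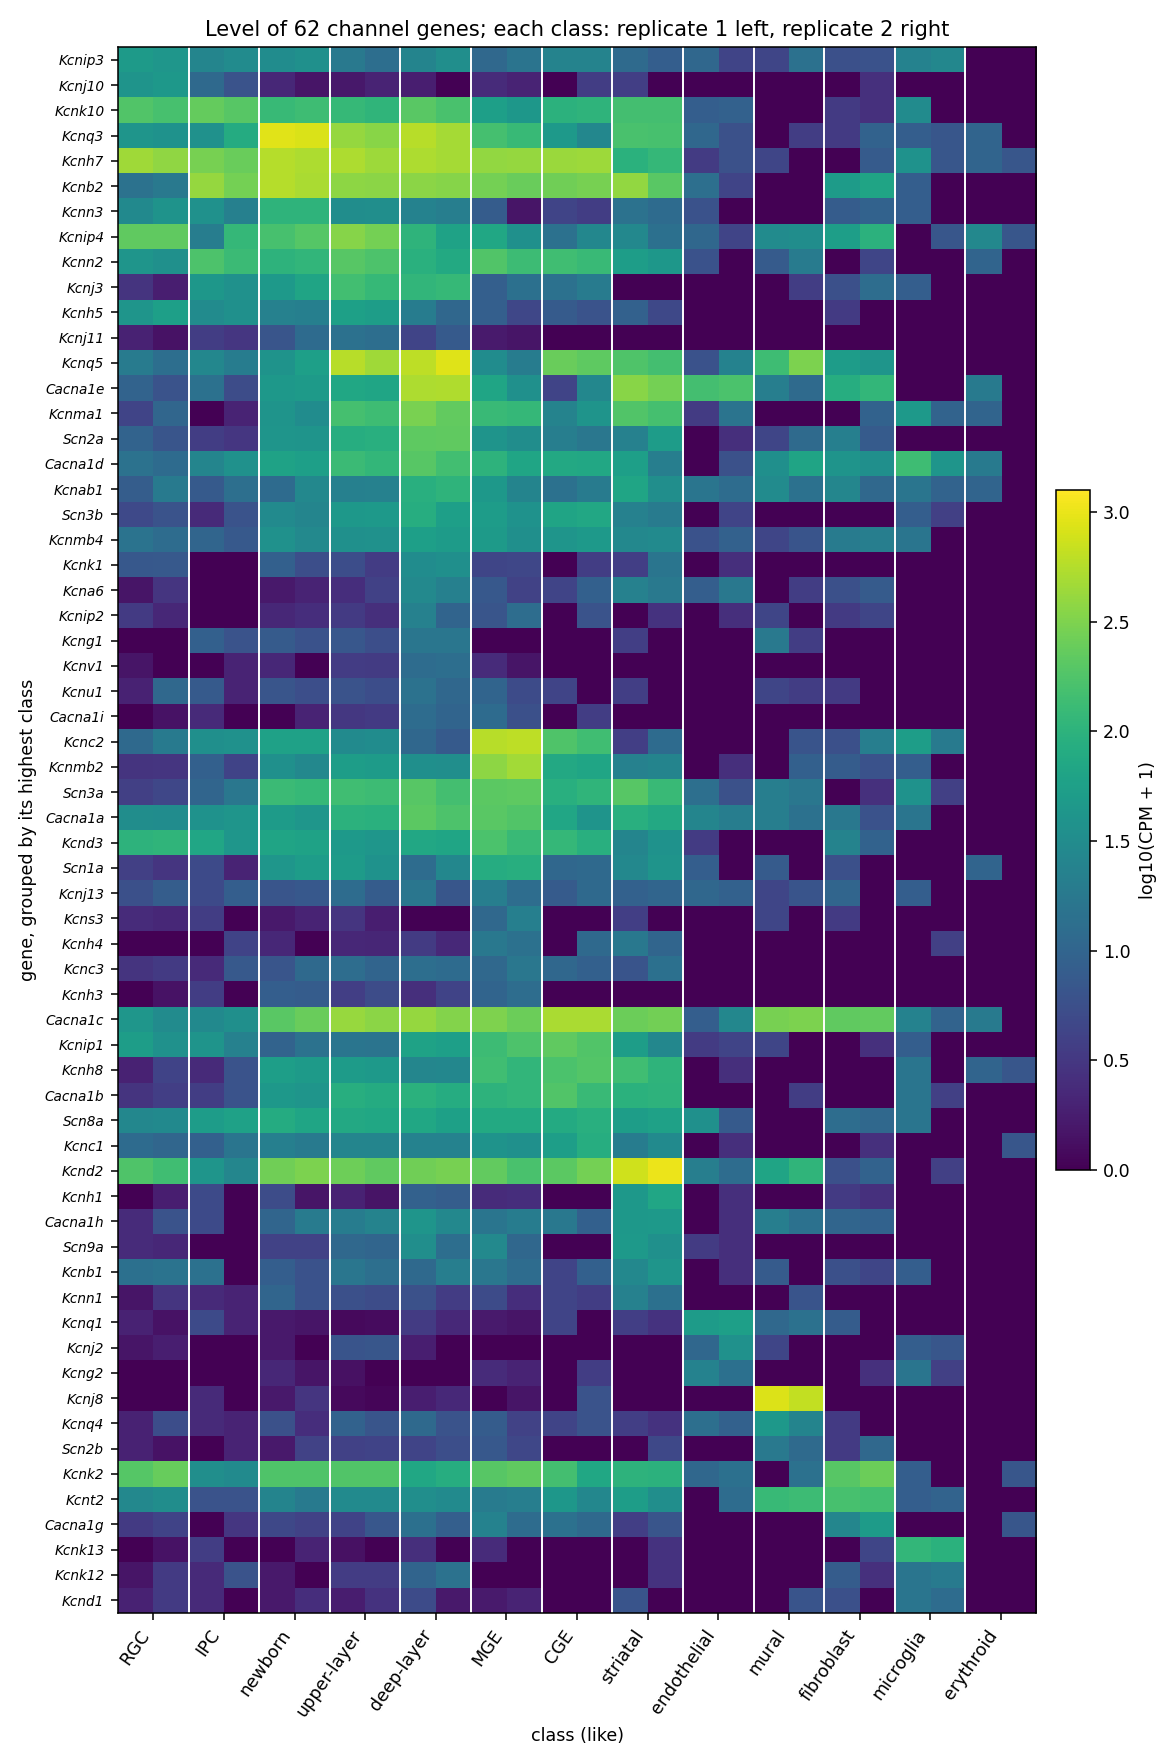
Level of 62 of the 64 channel genes with a mean of at least 10 CPM in some class (rows, grouped by their highest class) in the 13 classes (columns, replicate 1 left and replicate 2 right of each pair), as log10(CPM + 1). Most rows are bright across the neuron classes, whereas *Kcnj8* is bright only in the mural-like and *Kcnk13* only in the microglia-like columns.

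Promoter windows of 4 genes that led a comparison are shown, since CG dinucleotides, the sites of DNA methylation in mammals, differ in number between them. RefSeq windows of 300 bases (250 before the start of transcription and 50 after it, assembly GRCm38.p6, the same build as mm10) were found for 56 of the 84 genes, with 81 windows in all. Their median GC content was 59.7% and their median number of CG dinucleotides 11, beside 52.7% and 7 over all 32851 windows of the table, a description that was not tested. The windows lie at chr1:172340960-172341259 on the plus strand (*Kcnj10*, highest in RGC-like cells), chr1:154725871-154726170 on the minus strand (*Cacna1e*, highest in deep-layer neuron-like cells), chr3:31902453-31902752 on the plus strand (*Kcnmb2*, highest in MGE interneuron-like cells) and chr6:142571565-142571864 on the minus strand (*Kcnj8*, highest in mural-like cells). The windows of *Cacna1e* and *Kcnmb2* lie inside the RefSeq spans of their genes (chr1:154390806-154884785 and chr3:31901861-32200180). They are thus at starts within the gene, not at its outermost start. All 4 windows are printed in the direction of the gene with each CG dinucleotide in capitals, 21, 11, 9 and 9 in number.
Kcnj10: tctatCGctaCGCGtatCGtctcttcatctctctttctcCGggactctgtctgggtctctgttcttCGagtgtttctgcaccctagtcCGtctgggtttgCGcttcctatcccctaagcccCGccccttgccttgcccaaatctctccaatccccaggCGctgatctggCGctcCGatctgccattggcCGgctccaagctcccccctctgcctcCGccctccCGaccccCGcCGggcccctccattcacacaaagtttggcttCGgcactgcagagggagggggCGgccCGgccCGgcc
Cacna1e: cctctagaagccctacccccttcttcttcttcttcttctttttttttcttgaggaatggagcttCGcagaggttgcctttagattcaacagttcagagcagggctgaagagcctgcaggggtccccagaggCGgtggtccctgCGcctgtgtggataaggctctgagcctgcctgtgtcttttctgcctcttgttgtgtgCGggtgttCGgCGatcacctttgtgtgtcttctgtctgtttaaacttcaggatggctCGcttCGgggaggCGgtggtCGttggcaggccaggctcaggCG
Kcnmb2: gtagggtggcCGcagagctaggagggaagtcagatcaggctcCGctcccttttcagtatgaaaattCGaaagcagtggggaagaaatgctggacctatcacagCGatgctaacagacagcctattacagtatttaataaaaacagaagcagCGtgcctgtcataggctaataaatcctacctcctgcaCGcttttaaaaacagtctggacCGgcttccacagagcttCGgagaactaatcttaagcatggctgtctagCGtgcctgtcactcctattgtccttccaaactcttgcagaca
Kcnj8: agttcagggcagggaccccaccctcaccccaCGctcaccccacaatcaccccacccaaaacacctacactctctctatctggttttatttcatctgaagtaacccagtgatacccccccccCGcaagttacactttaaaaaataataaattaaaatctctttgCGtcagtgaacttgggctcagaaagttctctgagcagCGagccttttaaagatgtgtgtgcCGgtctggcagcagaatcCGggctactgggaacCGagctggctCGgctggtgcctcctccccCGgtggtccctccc
The letters TTCAGCACC, the core of the element bound by the neuronal repressor REST, were found on either strand in 1 of the 81 windows (*Kcnh6*), or 1.23%, beside 0.371% of all windows. TAATTA, a homeodomain motif, was in 0 of 81 windows beside 5.29%.

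The first comparison asked how channel transcripts differ between neurons and the progenitors they come from. Excitatory neuron-like cells (upper-layer and deep-layer classes, averaged) had higher levels of each sodium and calcium channel gene tested than RGC-like cells, and of most potassium channel genes. A gene was called at an adjusted p under 0.05 (edgeR, quasi-likelihood F test, p-values adjusted after Benjamini and Hochberg across the genes tested). Of the 74 genes tested 57 were called, beside 59% of all genes: 51 were higher in neurons, beside 30.5% of all genes, and 6 were lower, beside 28.5%. All 8 sodium and all 8 calcium channel genes tested were called higher, as were 35 of 58 potassium channel genes, while 6 of the 58 were lower and 17 were not called. The median log2 fold change was 2.11 for the channel genes and 0.08 for all genes (1.89 and 0.06 with genes at 0 UMIs in a class set to the bound that 3 UMIs over both libraries allow).

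*Scn3a*, a pore subunit typical of the embryonic brain, stood at 2.87 and 3.60 CPM in RGC-like and 167 and 141 CPM in excitatory neuron-like cells (log2 fold change 5.66 ± 0.25 (SE), edgeR adjusted p = 1.02e-25). *Scn2a*, a pore of the adult brain, was 8.62 and 5.61 CPM and 148 and 155 CPM (log2 fold change 4.44 ± 0.21 (SE), edgeR adjusted p = 2.42e-24). *Scn8a*, another adult pore, was already at 26.3 and 28.4 CPM in RGC-like cells and 71.7 and 63.3 CPM in neurons (log2 fold change 1.45 ± 0.18 (SE), edgeR adjusted p = 1.16e-09). Among calcium channel pores the largest differences were those of 2 genes of presynaptic and dendritic channels. *Cacna1b*, the N-type pore, was 1.92 and 2.80 CPM in RGC-like and 90.6 and 81.1 CPM in neurons (log2 fold change 5.26 ± 0.27 (SE), edgeR adjusted p = 1.11e-22). *Cacna1e*, the R-type pore, was 8.62 and 5.21 CPM and 296 and 304 CPM (log2 fold change 4.94 ± 0.23 (SE), edgeR adjusted p = 7.83e-25). The libraries of the classes did not overlap for any of these genes.

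Potassium channel genes of several families rose. *Kcnq5* encodes a subunit of the M-current, a slow current that limits repetitive firing. *Kcnq5* was 18.7 and 12 CPM in RGC-like cells and 599 and 668 CPM in neurons (log2 fold change 5.53 ± 0.22 (SE), edgeR adjusted p = 1.82e-27). *Kcnj3*, a subunit of the potassium channels opened by G proteins, had 4 and 2 UMIs in RGC-like cells (1.92 and 0.801 CPM) and stood at 126 and 119 CPM in neurons (log2 fold change 6.60 ± 0.30 (SE), edgeR adjusted p = 1.50e-24). *Kcnma1*, the pore of the BK channel that opens with calcium, was 3.35 and 9.61 CPM and 224 and 181 CPM (log2 fold change 4.98 ± 0.23 (SE), edgeR adjusted p = 4.70e-25). The within-library log2 ratio of *Kcnma1* was 5.98 in replicate 1 and 4.19 in replicate 2, that of *Kcnj3* 6.03 in replicate 1 and 7.21 in replicate 2. *Kcng1*, a silent subunit that works only with a partner, had no UMI in RGC-like cells and 10.7 and 10.1 CPM in neurons, at least 15.8-fold higher over both libraries (edgeR adjusted p = 1.24e-07).

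The genes higher in RGC-like cells were led by *Kcnj10*, the inward rectifier that clears potassium in glia, at 39.7 and 43.7 CPM against 0.705 and 0.527 CPM in neurons (log2 fold change -5.82 ± 0.41 (SE), edgeR adjusted p = 3.06e-17). The other 4 with at least 10 CPM differed less: *Kcnip3* (-0.97 ± 0.17, log2 fold change with SE), *Kcnd3* (-0.77 ± 0.13), *Kcnk2* (-0.71 ± 0.13) and *Kcnh5* (-0.66 ± 0.19), with edgeR adjusted p between 2.82e-06 and 0.00225. *Kcnk2* encodes a stretch-sensitive leak channel and held 192 and 240.3 CPM in RGC-like cells. It held 181 and 178 CPM in upper-layer and 68.6 and 85.6 CPM in deep-layer cells. *Kcnh5* held 40.7 and 55.3 CPM in RGC-like, 56.8 and 51.5 CPM in upper-layer and 18.8 and 9.72 CPM in deep-layer cells. For these genes the lower average of neurons thus came mainly from the deep-layer class. The within-library ratio of *Kcnh5* was -0.32 in replicate 1 and -1.30 in replicate 2, and DESeq2 did not call it. RGC-like cells were thus not without channel transcripts, since *Kcnh7*, of the ERG family, held 457 and 386 CPM there and 519.7 and 461 CPM in neurons (log2 fold change 0.39 ± 0.11 (SE), edgeR adjusted p = 0.0015).

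Of 32 companion genes (auxiliary calcium channel subunits, sodium channel partners, the NALCN channel and the like), 31 were tested here and 23 were higher and 3 lower in neurons. The first by size was *Abcc8*, a sulfonylurea receptor, with no UMI in RGC-like cells and 27.8 and 25.3 CPM in neurons, at least 40.1-fold higher. *Cacng2* was also higher, at 0.958 and 0.401 CPM against 31.5 and 34.8 CPM. *Nalcn* (-1.03 ± 0.20) and *Cacnb2* (-1.01 ± 0.16) were lower in neurons.

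From RGC-like to IPC-like cells, channel genes were called in both directions, at shares near those of all genes. Of 74 genes 18 were called (24.3%), beside 21.1% of all genes. In IPC-like cells 8 were higher (10.8%, beside 7.68% of all genes) and 10 lower (13.5%, beside 13.4%). The medians were -0.02 for the channel genes and -0.11 for all genes. *Kcnb2*, the pore of a delayed rectifier, stood at 13.9 and 16.8 CPM in RGC-like and 406 and 281 CPM in IPC-like cells (log2 fold change 4.43 ± 0.21 (SE), edgeR adjusted p = 5.90e-23). *Kcnj3* was 42.1 and 36.0 CPM in IPC-like cells, above both RGC-like libraries (log2 fold change 4.77 ± 0.49 (SE), edgeR adjusted p = 3.46e-11; within-library ratio 4.46 in replicate 1 and 5.49 in replicate 2). *Kcnn2*, a small-conductance channel opened by calcium, was 40.2 and 34.8 CPM and 169.9 and 130.2 CPM (log2 fold change 1.97 ± 0.19 (SE), edgeR adjusted p = 3.64e-12). In these 3 genes both IPC-like libraries lay above both RGC-like libraries. Neuronal genes were higher in IPC-like cells too, as the 8 markers of newborn neurons summed to 1397 and 1532 CPM against 266 and 263 CPM. *Neurod6* stood at 288 and 321 CPM against 22.0 and 35.6 CPM, and *Rbfox3* at 292 and 226 CPM against 8.14 and 7.21 CPM. The part of neuronal transcripts in the rises was not tested.

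Smaller rises in IPC-like cells were those of *Scn3a* (1.94 ± 0.56, log2 fold change with SE), *Cacna1d* (1.31 ± 0.36), *Kcnc2* (1.26 ± 0.32) and *Scn8a* (0.98 ± 0.26), with edgeR adjusted p between 0.0028 and 0.00778. None of these 4 was called with a stricter gate on the cells (4 markers and a lead of 3), and 11 genes were called in all with it, 3 higher and 8 lower. Of the genes that fell, *Kcnk2* was 192 and 240.3 CPM in RGC-like and 32.9 and 29.6 CPM in IPC-like cells (log2 fold change -2.81 ± 0.23 (SE), edgeR adjusted p = 1.16e-14). *Kcnd2*, the pore of an A-type channel, was 176 and 139 CPM and 40.8 and 25.4 CPM (log2 fold change -2.28 ± 0.25 (SE), edgeR adjusted p = 3.11e-10). *Kcnt2* (-2.49 ± 0.42), *Kcnj10* (-2.44 ± 0.44; within-library ratio -1.92 in replicate 1 and -3.04 in replicate 2), *Kcnd3* (-0.99 ± 0.20) and *Kcnh7* (-0.67 ± 0.14) were lower as well. *Kcnip4*, which binds A-type channels, was uneven between the libraries of IPC-like cells, at 19.8 and 116 CPM against 219 and 219.5 CPM in RGC-like cells (log2 fold change -1.61 ± 0.26, within-library ratio -3.47 in replicate 1 and -0.92 in replicate 2). *Kcnma1* was called lower (edgeR adjusted p = 0.0301) on 1 UMI in IPC-like cells, but not by DESeq2, with a stricter gate or with doublets kept.

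Of the 31 companions tested 5 were higher and 9 lower in IPC-like cells. The sodium channel partners *Fgf12* (-3.18 ± 0.28) and *Fgf14* (-2.62 ± 0.20) and *Dpp6*, which binds A-type channels (-2.22 ± 0.27; within-library ratio -2.84 in replicate 1 and -1.79 in replicate 2) had the largest falls. *Ank3* (2.29 ± 0.27), *Cacng5* (1.78 ± 0.47) and *Cacna2d1* (1.69 ± 0.14) had the largest rises.

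From IPC-like to newborn neuron-like cells many channel genes rose and few fell. Of 74 genes 32 were called, beside 26% of all genes: 29 were higher (14.8% of all genes) and 3 lower (11.2%), with medians of 1.45 and 0.08, or 0.93 and 0.04 with genes at 0 UMIs set to their bound. Of 8 sodium channel genes 5 were called higher and none lower. *Scn3a* was 9.22 and 15.9 CPM in IPC-like and 130.0 and 118 CPM in newborn neuron-like cells (log2 fold change 3.38 ± 0.29 (SE), edgeR adjusted p = 5.52e-14). *Scn2a* was 2.63 and 2.12 CPM against 40.0 and 39.5 CPM (log2 fold change 4.15 ± 0.51 (SE), edgeR adjusted p = 3.30e-09). *Scn1a* was 3.95 and 1.06 CPM against 41.3 and 50.6 CPM (log2 fold change 4.37 ± 0.54, within-library ratio 3.39 in replicate 1 and 5.58 in replicate 2). In each of these genes both newborn libraries lay above both IPC-like libraries.

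The largest single rise by level was that of *Kcnq3*, another M-current subunit, from 35.6 and 79.4 CPM to 916 and 840.3 CPM (log2 fold change 4.0 ± 0.18 (SE), edgeR adjusted p = 2.54e-24). The within-library ratio of *Kcnq3* was 4.69 in replicate 1 and 3.40 in replicate 2. *Kcnq5* was still low, at 37.6 and 55.1 CPM (1.2 ± 0.38, not called by DESeq2 or with a stricter gate). *Kcnh8* (3.94 ± 0.44; within-library ratio 5.35 in replicate 1 and 3.20 in replicate 2) and *Cacna1b* (3.45 ± 0.43; within-library ratio 4.05 in replicate 1 and 2.94 in replicate 2) were called higher as well. *Kcnd2* (3.29 ± 0.24) was back at 269.9 and 309 CPM. So was *Kcnk2*, at 174 and 176 CPM (log2 fold change 2.62 ± 0.24 (SE), edgeR adjusted p = 2.78e-13). *Kcnma1* had 1 UMI in IPC-like cells and 38.8 and 30.9 CPM in newborn neuron-like cells (edgeR adjusted p = 2.96e-08). The genes that fell were *Kcnip1* (-1.26 ± 0.37; within-library ratio -2.20 in replicate 1 and -0.70 in replicate 2), *Kcnk10* (-0.58 ± 0.16) and *Kcnj10*, with 2 and 1 UMIs in newborn neuron-like cells. *Kcnk10* and *Kcnj10* were not called with a stricter gate. Of 31 companions 17 rose and 1 fell. *Fgf14* rose (3.32 ± 0.20), *Cacng2* reached 30.8 and 32.9 CPM, and *Cacng5* fell (-4.68 ± 0.67).

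**Figure D3:**
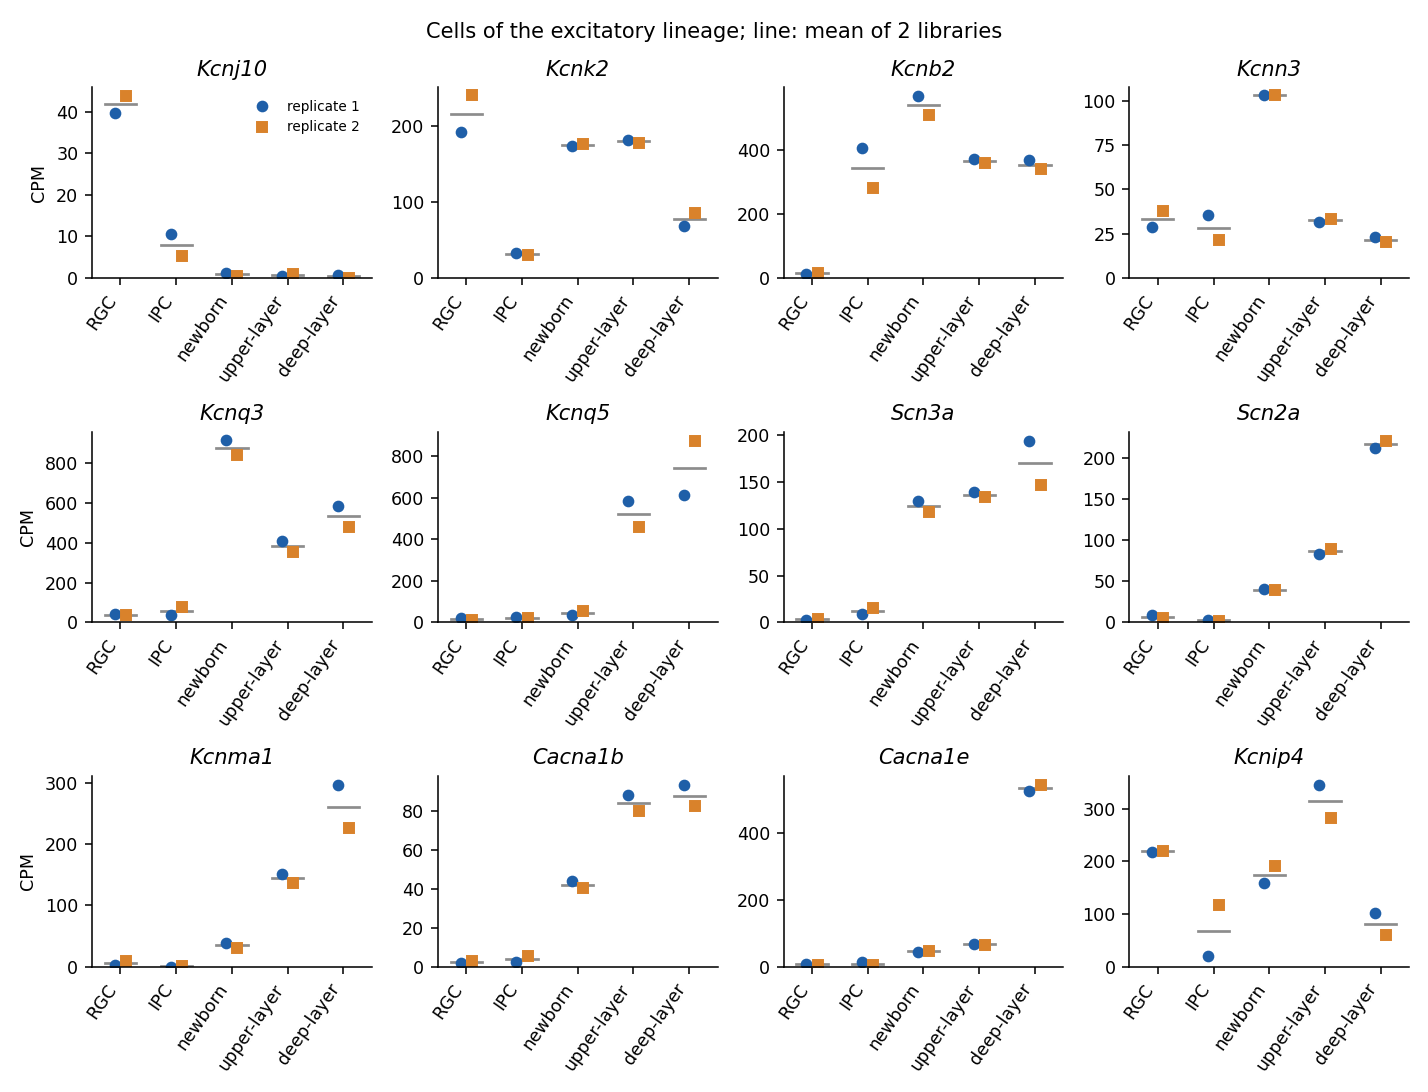
Level in CPM (y axes starting at 0, each with its own scale) of 12 channel genes in RGC-like, IPC-like, newborn neuron-like, upper-layer and deep-layer neuron-like cells (x axes). Circles are replicate 1, squares replicate 2 and lines their mean; *Kcnb2* is up in IPC-like cells, *Kcnq3* and *Kcnn3* peak in newborn neuron-like cells, *Kcnq5* is high only in upper-layer and deep-layer cells, and *Cacna1e* and *Scn2a* are highest in deep-layer cells.

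Upper-layer neuron-like cells held more transcripts of many channel genes than newborn neuron-like cells. Of 74 genes 23 were called, beside 10.3% of all genes: 18 were higher (6.1% of all genes) and 5 lower (4.24%), with medians of 0.49 and 0.07. DESeq2 on the same sums called 14 (11 higher and 3 lower). Among called genes that reached 10 CPM, *Kcnq5* had the largest log2 fold change, from 37.6 and 55.1 CPM to 584 and 459.8 CPM (log2 fold change 3.51 ± 0.20 (SE), edgeR adjusted p = 6.51e-20). *Kcnma1* went from 38.8 and 30.9 to 152 and 136 CPM (log2 fold change 2.09 ± 0.19 (SE), edgeR adjusted p = 9.20e-13). Both libraries of upper-layer cells lay above both newborn libraries in these genes. *Kcnh5* (1.37 ± 0.20, log2 fold change with SE), *Kcnj3* (1.29 ± 0.16), *Scn2a* (1.16 ± 0.17), *Cacna1d* (1.11 ± 0.17), *Cacna1a* (1.10 ± 0.16) and *Cacna1b* (1.03 ± 0.16) were about 2 times higher or more, with edgeR adjusted p of at most 3.17e-06.

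Genes that fell were all potassium channel genes. *Kcnn3*, a small-conductance channel opened by calcium, was 104 and 103 CPM in newborn and 31.8 and 33.2 CPM in upper-layer cells (log2 fold change -1.62 ± 0.16 (SE), edgeR adjusted p = 3.87e-11). *Kcnq3* went from 916 and 840.3 to 410.1 and 355 CPM (log2 fold change -1.16 ± 0.12 (SE), edgeR adjusted p = 7.27e-11). *Kcnip3* (-1.19 ± 0.21), *Kcnc2* (-0.90 ± 0.18) and *Kcnb2* (-0.52 ± 0.12) fell less in level or fold, the last 2 not called by DESeq2. *Scn1a*, *Scn3a* and *Scn8a* were not called (edgeR adjusted p = 0.878, 0.53 and 0.976). Of 31 companions 12 rose and 1 fell. *Cacna2d3* (2.44 ± 0.20), *Dpp10* (2.38 ± 0.41; within-library ratio 1.71 in replicate 1 and 3.82 in replicate 2) and *Cacng4* (1.12 ± 0.16) rose most.

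Deep-layer neuron-like cells, the earlier-born excitatory neurons, had higher levels of many channel genes than upper-layer cells. Of 74 genes 33 were called, beside 15.2% of all genes: 24 were higher in deep-layer cells (8.82% of all genes) and 9 lower (6.42%), with medians of 0.42 and -0.01. DESeq2 called 21 (16 higher and 5 lower). With other scaling factors (RLE in edgeR, or DESeq2) the median of all genes moved by 0.13 to 0.14 in this comparison and by 0.15 in that of MGE interneuron-like with excitatory cells, so changes of that size have no settled direction.

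*Cacna1e* set the classes apart most clearly by level, at 524 and 543 CPM in deep-layer and 68.3 and 64.7 CPM in upper-layer cells (log2 fold change 3.03 ± 0.14 (SE), edgeR adjusted p = 1.62e-23). The minus-strand window of chromosome 1 above is at a start inside this gene. *Scn2a* was 212 and 221 CPM against 83.7 and 89.2 CPM (log2 fold change 1.35 ± 0.13 (SE), edgeR adjusted p = 8.90e-12). *Kcnab1*, a beta subunit of Shaker-type channels, was 88.3 and 102 CPM against 21.5 and 22.2 CPM (log2 fold change 2.15 ± 0.21 (SE), edgeR adjusted p = 1.97e-12). Several genes of low level followed. *Kcna6*, a Shaker-type pore, was 27.8 and 21.4 CPM against 1.58 and 2.93 CPM (3.37 ± 0.44; within-library ratio 4.14 in replicate 1 and 2.87 in replicate 2). *Kcnk1*, a leak channel, was 31.1 and 33.7 CPM against 4.34 and 2.58 CPM (3.28 ± 0.39). *Kcnip2* (22.1 and 9.08 CPM in deep-layer cells, 2.91 ± 0.54), *Kcnv1* (11.4 and 12.3 CPM, 2.23 ± 0.57), *Kcnk12* (8.99 and 13.6 CPM, 2.14 ± 0.56) and *Cacna1i* (11.4 and 9.08 CPM, 2.13 ± 0.59) had edgeR adjusted p of at most 0.00734. DESeq2 called neither *Kcnv1* nor *Cacna1i*.

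Upper-layer cells held more of *Kcnip4* (346 and 283 CPM against 103 and 60.9 CPM in deep-layer cells, log2 fold change -1.94 ± 0.22 (SE), edgeR adjusted p = 5.15e-10). So it was with *Kcnh5* (56.8 and 51.5 against 18.8 and 9.72 CPM, log2 fold change -1.93 ± 0.24 (SE), edgeR adjusted p = 1.45e-08). *Kcnk2* (181 and 178 against 68.6 and 85.6 CPM) and *Kcnn2* (197 and 172 against 90.7 and 74.5 CPM) were also lower in deep-layer cells (log2 fold changes -1.18 ± 0.16 and -1.13 ± 0.15). For both of them, as for *Kcnip4* and *Kcnh5*, no deep-layer library reached an upper-layer library. *Kcnc2* (-1.90 ± 0.33), *Scn1a* (-1.07 ± 0.26; within-library ratio -2.10 in replicate 1 and -0.49 in replicate 2) and *Kcnh8* (-0.83 ± 0.22) were lower as well, *Scn1a* and *Kcnh8* without a call by DESeq2. The 2 others called lower, *Kcnj2* and *Kcng3*, stayed under 10 CPM in both classes. *Kcnq5* was called higher in deep-layer cells (0.54 ± 0.15, 613 and 876 against 584 and 459.8 CPM), but not by DESeq2, and with a stricter gate the value was -0.014. Of 31 companions 13 were higher and 3 lower. *Dpp10*, which binds A-type channels, was 1157 and 839 CPM against 28.2 and 21.4 CPM (5.37 ± 0.18). *Nalcn* (2.68 ± 0.27; within-library ratio 3.22 in replicate 1 and 2.01 in replicate 2) was higher. *Cacna2d1* (-2.0 ± 0.13), *Cacng2* (-1.52 ± 0.23; within-library ratio -2.17 in replicate 1 and -1.17 in replicate 2) and *Abcc8* (-0.88 ± 0.28) were lower.

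MGE interneuron-like cells, whose lineage gives rise to somatostatin and parvalbumin interneurons, had higher levels of *Kcnc2*, *Kcnmb2* and *Scn1a* than excitatory neuron-like cells and lower levels of *Kcnq5*, *Kcnj3* and *Scn2a*. Of 74 genes 37 were called, beside 20.7% of all genes: 13 were higher in MGE interneuron-like cells (9.61% of all genes) and 24 lower (11.1%), with medians of -0.53 and -0.04. The split depended on the processing, with 16 higher and 19 lower under RLE factors and 14 higher and 12 lower in DESeq2. DESeq2 changes the test as well as the scaling. *Kcnc2*, the pore of a channel known from fast-spiking and somatostatin interneurons, stood at 581 and 614 CPM against 19.6 and 19.0 CPM in excitatory cells (log2 fold change 5.18 ± 0.14 (SE), edgeR adjusted p = 4.25e-33). *Kcnmb2*, a beta subunit of the BK channel with a window shown above, was 377 and 471 CPM against 43.0 and 41.1 CPM (log2 fold change 3.29 ± 0.12 (SE), edgeR adjusted p = 1.57e-28). The pore *Kcnma1* was lower in MGE interneuron-like cells (126 and 115 against 224 and 181 CPM, -0.75 ± 0.14, not called by DESeq2).

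*Kcnip1*, a partner of A-type channels, was 133 and 170.1 CPM against 37.8 and 34.5 CPM (log2 fold change 2.31 ± 0.15 (SE), edgeR adjusted p = 1.29e-18). *Scn1a* was 83.2 and 87.1 CPM against 30.3 and 32.0 CPM (log2 fold change 1.48 ± 0.19 (SE), edgeR adjusted p = 5.88e-09). *Scn1a* encodes the sodium channel pore on which fast-spiking interneurons depend later in life. *Kcnh8* (1.76 ± 0.15), *Kcnh4* (3.19 ± 0.54) and *Kcnh3* (1.71 ± 0.51) of the EAG family and the silent subunit *Kcns3* (10.3 and 20.6 CPM, 5.44 ± 0.77) were higher too, *Kcnh3* without a call by DESeq2. For each of these 4 both MGE libraries lay above both excitatory means.

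Lower in MGE interneuron-like cells were above all *Kcnq5*, at 30.9 and 19.1 CPM against 599 and 668 CPM (log2 fold change -4.76 ± 0.21 (SE), edgeR adjusted p = 8.35e-25). *Kcnj3* was at 7.56 and 12.9 CPM against 126 and 119 CPM (log2 fold change -3.59 ± 0.22 (SE), edgeR adjusted p = 6.70e-19). *Kcng1* had no UMI there, at least 11.7-fold less than in excitatory cells. *Scn2a* (39.2 and 32.5 against 148 and 155 CPM, -2.02 ± 0.16), *Cacna1e* (66.0 and 35.0 against 296 and 304 CPM, -2.02 ± 0.17) and *Kcnq3* (153 and 120.1 against 498 and 419 CPM, -1.81 ± 0.13) followed. In all of these both MGE libraries lay below both excitatory means. The mean of *Cacna1e* was carried by deep-layer cells (524 and 543 CPM). Upper-layer cells held 68.3 and 64.7 CPM of it, near the 66.0 CPM of MGE interneuron-like cells in replicate 1. Fold changes average both excitatory classes on the log scale, which the printed means do not. *Kcnn3* (-3.06 ± 0.39; within-library ratio -1.97 in replicate 1 and -5.65 in replicate 2) and *Kcnh5* (-2.41 ± 0.34) had few UMIs in MGE interneuron-like cells. *Scn3a* (0.40 ± 0.12) and *Cacna1a* (0.42 ± 0.11) were called slightly higher and *Cacna1c* (-0.49 ± 0.12) lower, and none of the 3 was called with a stricter gate. Of 31 companions 12 were higher and 5 lower. *Cacng3* (5.30 ± 0.27), *Dpp10* (2.73 ± 0.13) and *Cacna2d2* (2.59 ± 0.24) led the first. *Cacna2d1* (-5.59 ± 0.21) and *Ank2* (-0.92 ± 0.11) were lower, and *Abcc8* was down to 0.687 and 0.515 CPM from 27.8 and 25.3 CPM.

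**Figure D4:**
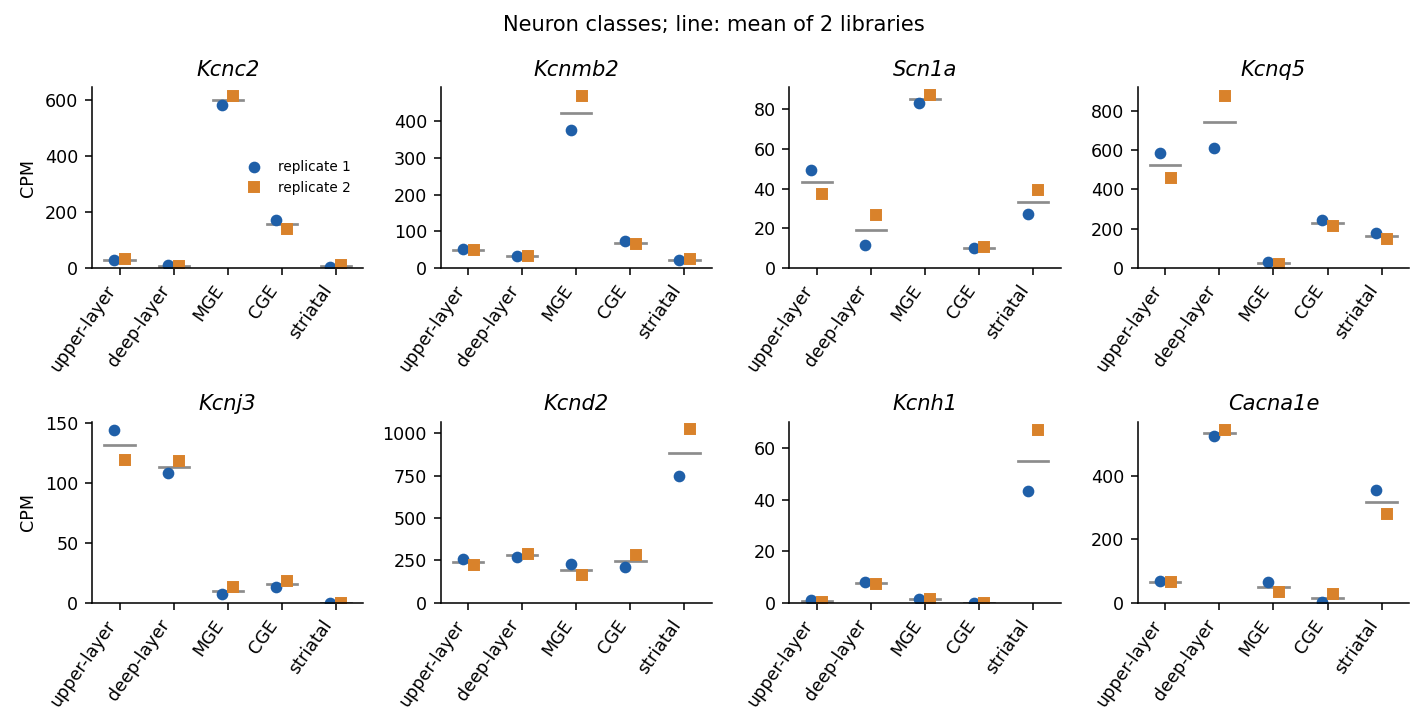
Level in CPM (y axes starting at 0, each with its own scale) of 8 channel genes in 5 neuron classes (x axes). Circles are replicate 1, squares replicate 2 and lines their mean; *Kcnc2*, *Kcnmb2* and *Scn1a* are highest in MGE interneuron-like cells, *Kcnd2* and *Kcnh1* in striatal projection neuron-like cells and *Cacna1e* in deep-layer neuron-like cells.

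Between MGE and CGE interneuron-like cells, the other interneuron class, fewer channel genes were called than against excitatory cells, as were fewer of all genes. Of 74 genes 14 were called, beside 4.59% of all genes: 11 were higher in MGE interneuron-like cells (2.92% of all genes) and 3 lower (1.67%). The medians were 0.56 and 0.18, or 0 and 0.07 with genes at 0 UMIs in a class set to their bound. The CGE class is small (66 and 90 cells), and a stricter gate left 9 calls (8 higher and 1 lower). *Kcnmb2* (377 and 471 against 73.3 and 65.7 CPM, log2 fold change 2.71 ± 0.22 (SE), edgeR adjusted p = 3.52e-14) separated the interneuron classes as well. So did *Kcnc2* (581 and 614 against 173 and 139 CPM, log2 fold change 2.04 ± 0.18 (SE), edgeR adjusted p = 2.73e-12). *Scn1a* was 83.2 and 87.1 CPM against 10.00 and 10.5 CPM (log2 fold change 3.13 ± 0.49 (SE), edgeR adjusted p = 4.39e-06). *Cacna1a*, the P/Q-type pore, was 199 and 178 CPM against 66.7 and 39.4 CPM (log2 fold change 1.95 ± 0.25 (SE), edgeR adjusted p = 4.59e-08).

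*Scn9a* and *Kcns3* had no UMI in CGE interneuron-like cells, at least 3.94-fold and 3.68-fold less than in MGE interneuron-like cells over both libraries (edgeR adjusted p = 0.00438 and 0.0273), and neither was called with a stricter gate. *Kcnq3* (2.02 ± 0.32) and *Kcnma1* (1.98 ± 0.35) were higher in MGE interneuron-like cells by similar folds. *Kcnk2* (1.07 ± 0.23; within-library ratio 0.37 in replicate 1 and 1.69 in replicate 2) and *Cacna1e* (1.67 ± 0.49; within-library ratio 4.31 in replicate 1 and 0.42 in replicate 2) were called with very unequal libraries. *Cacna1e* was not called with RLE factors, by DESeq2 or with a stricter gate. Higher in CGE interneuron-like cells was *Kcnq5* (247 and 215 CPM against 30.9 and 19.1 CPM, log2 fold change -3.15 ± 0.31 (SE), edgeR adjusted p = 4.29e-11). *Cacna1c*, an L-type pore (503 and 502 against 319 and 254 CPM, log2 fold change -0.74 ± 0.16 (SE), edgeR adjusted p = 8.85e-04), and *Kcnk10* (-0.96 ± 0.27) were higher too, but not with a stricter gate. Of 31 companions 7 were higher and 3 lower. *Dpp10* (4.06 ± 0.25), *Cacna2d2* (2.94 ± 0.53; within-library ratio 3.85 in replicate 1 and 2.44 in replicate 2) and *Cacng3* (105 and 117 against 0 and 2.63 CPM) were higher in MGE interneuron-like cells. *Cacna2d1* (-2.05 ± 0.45), *Cacna2d3* (-1.48 ± 0.18) and *Cacnb2* (-0.82 ± 0.22) were lower.

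Striatal projection neuron-like cells, also inhibitory neurons, had more *Kcnd2* and *Kcnh1* and less *Kcnc2* and *Kcnmb2* than MGE interneuron-like cells. Of 74 genes 22 were called, beside 9.39% of all genes: 8 were higher in striatal projection neuron-like cells (3.67% of all genes) and 14 lower (5.72%). The medians were -0.17 and -0.14, or 0 and -0.04 with genes at 0 UMIs in a class set to their bound. *Kcnd2*, which carries the A-type current of these neurons, was 749 and 1025 CPM against 226 and 162 CPM (log2 fold change 2.16 ± 0.16 (SE), edgeR adjusted p = 7.68e-16). *Kcnh1*, an EAG pore, was 43.6 and 67 CPM against 1.37 and 1.55 CPM (log2 fold change 5.12 ± 0.70 (SE), edgeR adjusted p = 1.31e-07). *Cacna1e* was 354 and 281 CPM against 66.0 and 35.0 CPM (log2 fold change 2.61 ± 0.21 (SE), edgeR adjusted p = 1.62e-14). Both striatal libraries lay above both MGE libraries for these genes. *Kcnq5* (2.66 ± 0.32), *Kcnk10* (1.54 ± 0.22), *Kcnn1* (2.54 ± 0.73), *Kcna6* (1.99 ± 0.63) and *Cacna1h* (1.32 ± 0.39), a T-type pore, completed the list, with edgeR adjusted p of at most 0.0326. *Kcna6* and *Cacna1h* were not called by DESeq2, nor were these and *Kcnn1* among cells of 3000 to 12000 UMIs.

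In the other direction, *Kcnc2* was 2.72 and 11.2 CPM in striatal projection neuron-like cells against 581 and 614 CPM (log2 fold change -6.33 ± 0.31 (SE), edgeR adjusted p = 3.22e-22; within-library ratio -7.74 in replicate 1 and -5.78 in replicate 2). *Kcnmb2* was 21.8 and 24.2 CPM against 377 and 471 CPM (log2 fold change -4.26 ± 0.25 (SE), edgeR adjusted p = 1.56e-19). *Kcnh7* (95.3 and 115 against 395 and 409 CPM, log2 fold change -1.97 ± 0.19 (SE), edgeR adjusted p = 4.64e-12) was lower too. So were *Kcnd3* (24.5 and 37.2 against 166 and 124 CPM, log2 fold change -2.21 ± 0.27 (SE), edgeR adjusted p = 9.66e-09) and *Kcnip1* (-2.12 ± 0.28; within-library ratio -1.36 in replicate 1 and -2.71 in replicate 2). Of the A-type pores, *Kcnd2* was thus higher and *Kcnd3* lower in striatal projection neuron-like cells. *Kcnj3* and *Kcnh3* had no UMI there, both at least 3.20-fold less than in MGE interneuron-like cells, and *Kcns3* had 1 UMI. Of 31 companions 4 were higher and 8 lower. *Nalcn* (1.61 ± 0.26), *Cacna2d1* (1.71 ± 0.44) and *Cacna2d3* (0.85 ± 0.18) were among the first, *Dpp10* (-6.99 ± 0.34; within-library ratio -8.48 in replicate 1 and -6.52 in replicate 2), *Cacng3* (-3.71 ± 0.43) and *Fgf12* (-2.96 ± 0.22) among the second.

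Outside the neural lineages, the 84 genes summed to 1798 and 1852 CPM in mural-like cells, near the 1939.6 and 1882 CPM of RGC-like cells. The sums were lower in fibroblast-like (1114 and 1236 CPM) and endothelial-like cells (478 and 531 CPM). Of 74 genes 13 were called between mural-like cells (pericytes and smooth muscle of vessels) and endothelial-like cells, beside 14.8% of all genes: 9 were higher in mural-like cells (7.32% of all genes) and 4 lower (7.45%). The medians were 0 for the channel genes and -0.01 for all genes. With only these 2 classes in the fit, 9 of the 74 genes had enough counts and 8 were called (6 higher and 2 lower). *Kcnj8*, the pore of the vascular ATP-sensitive channel, stood at 855 and 650.1 CPM (252 and 244 UMIs) in mural-like cells and had no UMI in endothelial-like cells, at least 250.0-fold less (edgeR adjusted p = 1.51e-23). In the other classes it ranged from 0 to 5.25 CPM per library, where the highest level came from 2 UMIs in CGE interneuron-like cells. Its partner *Abcc9*, the sulfonylurea receptor of that channel, went with it, at 1008 and 1119 CPM in mural-like and 0 UMIs in endothelial-like cells, at least 361-fold less.

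*Cacna1c*, the L-type pore of muscle, was 288 and 306 CPM in mural-like and 7.46 and 26.2 CPM in endothelial-like cells (log2 fold change 3.95 ± 0.32 (SE), edgeR adjusted p = 1.79e-14; within-library ratio 5.27 in replicate 1 and 3.55 in replicate 2). *Cacna1d* was 33.9 and 63.9 CPM against 0 and 4.91 CPM (edgeR adjusted p = 4.90e-05). *Kcnt2*, a channel opened by sodium, was 122 and 133 CPM in mural-like and 0 and 11.4 CPM in endothelial-like cells (log2 fold change 4.16 ± 0.44 (SE), edgeR adjusted p = 5.58e-11). *Kcnq5* (136 and 309 against 4.98 and 22.9 CPM, 3.83 ± 0.44; within-library ratio 4.77 in replicate 1 and 3.75 in replicate 2) was higher in mural-like cells too, as was *Kcnd2* (64.5 and 107 against 19.9 and 11.4 CPM, 2.52 ± 0.50; within-library ratio 1.70 in replicate 1 and 3.22 in replicate 2). *Cacna1h*, with 6 and 5 UMIs in mural-like cells, and *Scn2b*, with 5 and 4, were called as well (edgeR adjusted p = 0.0169 and 0.0126). *Scn2b* had no UMI in endothelial-like cells, at least 4.54-fold less.

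Endothelial-like cells held more of *Cacna1e*, at 147 and 167 CPM against 20.4 and 10.7 CPM (log2 fold change -3.44 ± 0.44 (SE), edgeR adjusted p = 1.47e-08; within-library ratio -2.85 in replicate 1 and -3.97 in replicate 2). *Kcnq1*, the pore of a slow delayed rectifier, was at 49.8 and 55.6 CPM against 10.2 and 13.3 CPM (log2 fold change -2.20 ± 0.65 (SE), edgeR adjusted p = 0.0124). *Kcnq1* was highest in endothelial-like cells among all 13 classes in both libraries. *Kcnj2*, a strong inward rectifier, had 4 and 22 UMIs in endothelial-like cells (9.95 and 36.0 CPM) and 1 UMI in mural-like cells. *Scn8a* had 14 and 4 UMIs in endothelial-like and none in mural-like cells, at least 3.97-fold less. *Scn8a* was not called with doublets kept, nor *Kcnj2* by DESeq2. Of 31 companions 5 were higher and 1 lower in mural-like cells. *Abcc9*, *Cacnb2* (5.70 ± 0.47) and *Cacna2d1* (4.06 ± 0.30; within-library ratio 3.24 in replicate 1 and 4.88 in replicate 2) led, and *Fgf13* (3.39 and 2.66 against 62.2 and 37.6 CPM) was lower. Neuronal markers also occur at low level in these classes, *Neurod6* at 17.0 to 37.3 CPM in mural-like and endothelial-like cells, and their part in these values was not tested.

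The remaining classes entered no comparison, so their levels are a description. *Kcnk13*, a leak channel known from microglia, was 113 and 95.3 CPM in microglia-like cells and 0 to 3.40 CPM in the libraries of the other classes. *Kcnk2* reached 196 and 253 CPM in fibroblast-like cells, *Kcnt2* 158 and 144 CPM and *Cacna1g*, a T-type pore, 25.6 and 49.2 CPM. These last 2 genes were highest in fibroblast-like cells in both libraries.

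**Figure D5:**
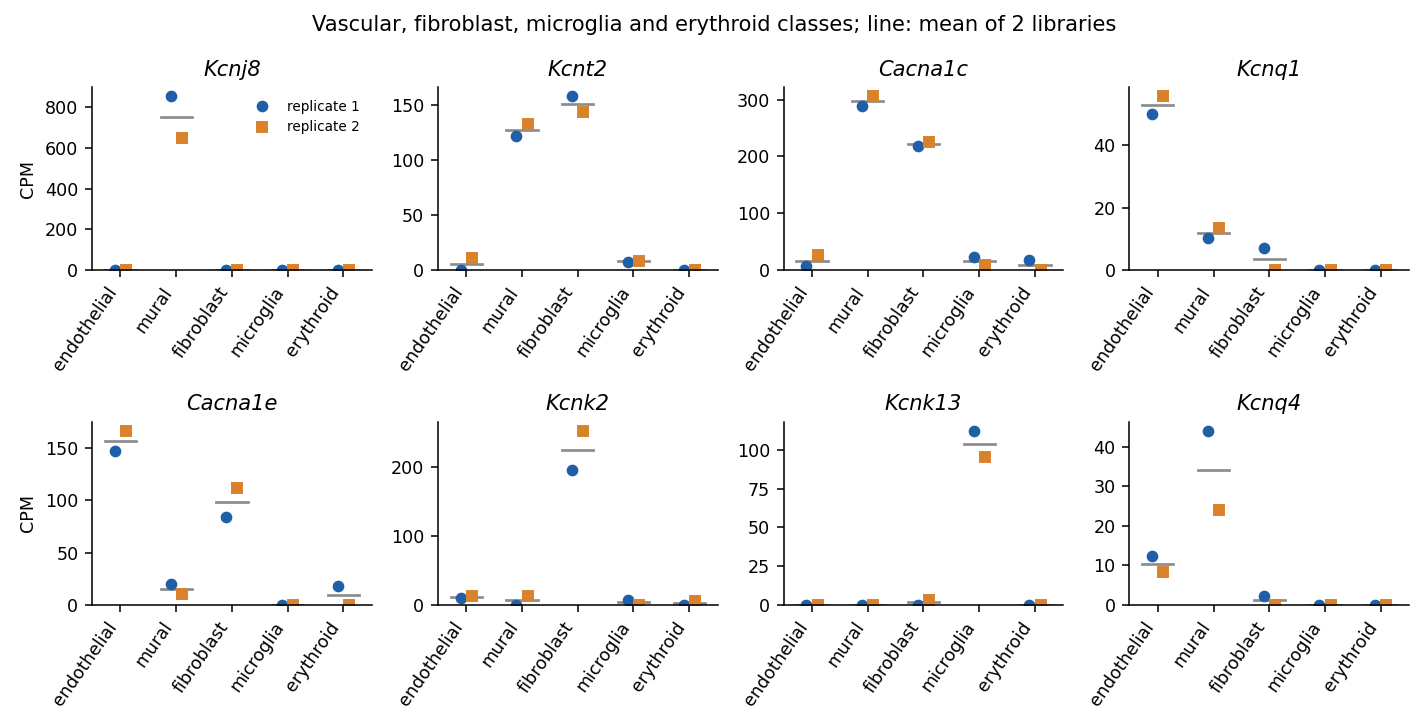
Level in CPM (y axes starting at 0, each with its own scale) of 8 channel genes in endothelial-like, mural-like, fibroblast-like, microglia-like and erythroid-like cells (x axes). Circles are replicate 1, squares replicate 2 and lines their mean; *Kcnj8* is high only in mural-like, *Kcnq1* in endothelial-like and *Kcnk13* in microglia-like cells, while *Kcnt2* and *Cacna1c* are shared by mural-like and fibroblast-like cells.

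Seen by gene across all 13 classes, the sodium channel pores had distinct orders. *Scn2a* had its highest level in deep-layer neuron-like cells (212 and 221 CPM), then upper-layer cells (83.7 and 89.2 CPM), and 0 to 50.2 CPM per library elsewhere. *Scn3a* was spread more evenly, with 90.0 to 212 CPM in the libraries of the 6 neuron classes and 0 to 37.5 CPM in the others. MGE interneuron-like cells (208 and 212 CPM) lay just above deep-layer (194 and 147 CPM) and striatal projection neuron-like cells (196 and 127 CPM), by less than the spread between the libraries of these 2 classes. *Scn1a* was 10.00 to 87.1 CPM in neuron classes and 0 to 9.01 CPM in others. *Scn8a* had 51.8 to 89.3 CPM in neuron classes, 26.3 to 58.2 CPM in RGC-like and IPC-like cells and 0 to 34.8 CPM in the non-neural classes. *Scn9a* was highest in striatal projection neuron-like cells (46.3 and 35.4 CPM), uneven in deep-layer (33.5 and 12.3 CPM) and MGE interneuron-like cells (27.5 and 9.79 CPM), and 0 to 10.1 CPM in the rest.

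Of the beta subunits, which modify gating and adhesion, *Scn3b* was neuronal, with 18.6 to 85.0 CPM in neuron classes and 0 to 7.50 CPM in others. *Scn2b* stayed low, at 0 to 17.0 CPM per library over all classes.

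Among calcium channel pores *Cacna1c* was the most widespread, with 203 to 503 CPM in neuron classes and 219 to 306 CPM in mural-like and fibroblast-like cells, against 0 to 41.2 CPM in the others. *Cacna1d*, the second L-type pore, had 20.5 to 194 CPM in neuron classes and 135 and 40.4 CPM in microglia-like cells, where the libraries differed. *Cacna1a* was highest in deep-layer (205 and 172 CPM) and MGE interneuron-like cells (199 and 178 CPM), which did not differ beyond their libraries, with 0 to 96.7 CPM elsewhere. *Cacna1b* was highest in CGE interneuron-like cells (180.0 and 123 CPM), 40.5 to 109 CPM in the other neuron classes and 0 to 15.0 CPM in the rest. *Cacna1e* was ordered from deep-layer (524 and 543 CPM) through striatal projection neuron-like (354 and 281 CPM) and endothelial-like (147 and 167 CPM) to fibroblast-like cells (83.9 and 112 CPM), with 0 to 68.3 CPM in the other classes. The T-type pores were low, with *Cacna1g* at 0 to 49.2, *Cacna1h* at 0 to 46.5 and *Cacna1i* at 0 to 11.4 CPM per library over all classes.

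The M-current subunits *Kcnq3* and *Kcnq5* peaked at different stages. *Kcnq3* was highest in newborn neuron-like cells, and 26.3 to 46.7 CPM in CGE interneuron-like cells against 355 to 585 CPM in excitatory and 0 to 9.95 CPM in non-neural cells. *Kcnq5* was high in upper-layer, deep-layer, CGE interneuron-like, mural-like and striatal projection neuron-like cells (136 to 876 CPM) and 0 to 55.1 CPM in the 8 other classes. Mural-like cells were thus the only non-neural class with a level of *Kcnq5* above 100 CPM in both libraries, and these differed by more than 2-fold.

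Of the A-type channel genes, *Kcnd2* was 139 to 309 CPM in RGC-like and neuron classes other than striatal, 40.8 and 25.4 CPM in IPC-like cells and 0 to 107 CPM in non-neural classes. *Kcnip1*, which binds its product, was highest in CGE (220.0 and 179 CPM) and MGE interneuron-like cells (133 and 170.1 CPM), 8.63 to 15.2 CPM in newborn and upper-layer cells and 22.2 to 60.5 CPM in RGC-like, IPC-like, deep-layer and striatal projection neuron-like cells. *Kcnh7* was 242 to 565 CPM in 7 neural classes, 95.3 and 115 CPM in striatal projection neuron-like cells and 0 to 37.5 CPM in the non-neural classes.

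The leak channel gene *Kcnk2* had 174 to 240.3 CPM in RGC-like, newborn, upper-layer and MGE interneuron-like cells, 32.9 and 29.6 CPM in IPC-like cells and 0 to 13.3 CPM in endothelial-like, mural-like, microglia-like and erythroid-like cells. *Kcnj10* was 39.7 and 43.7 CPM in RGC-like and 10.5 and 5.29 CPM in IPC-like cells, and 0 to 2.72 CPM elsewhere. *Kcnma1* was 115 to 296 CPM in upper-layer, deep-layer, MGE and striatal classes and 0 to 9.61 CPM in progenitor classes.

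The remaining potassium channel families are given by their counts, for neurons against RGC-like cells, where 30.5% of all genes were called higher and 28.5% lower. All 3 BK genes tested (log2 fold changes from 1.90 to 4.98) and all 3 Shaker beta subunits (1.47 to 2.75) were higher in excitatory neuron-like cells. Of 7 EAG genes 6 were higher and 1 lower (-0.66 to 4.10), of 8 leak channel genes 4 were higher and 2 lower, and of 7 inward rectifiers 2 were higher and 1 lower. Neither *Kcnt2*, a sodium-activated channel gene, nor *Kcnu1*, of the same larger family, was called. Called higher, with none lower, were 3 of 4 Shaker pores, 1 of 2 Shab pores, 2 of 3 Shaw pores, 2 of 3 small-conductance channel genes, 3 of 5 silent subunits and 4 of 5 *Kcnq* genes. Of the 4 KChIP genes 1 was higher and 1 lower, as of the 2 A-type pores tested. With 59% of all genes called in either direction, these counts describe the families and set none apart. The 10 genes without a test included *Kcnj9*, *Kcnt1*, *Kcnmb3*, *Kcna3*, *Kcnj12*, *Kcnh6*, *Kcns2*, *Kcng2* and *Kcnd1*, each with 9 to 37 UMIs per library over the named classes. For 14 of the 84 genes a protein-coding gene on the opposite strand overlaps the locus. For *Kcnip1* one lies on the same strand, so reads of *Kcnip1* may be shared. *Kcnj13*, which lies inside *Gigyf2*, stood at 0 to 19.9 CPM per library across the classes.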

How the data were processed

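The deposited counts are UMI counts per gene and barcode, which the authors made with 10x Genomics Cell Ranger (7.1.0 per the file headers, 7.0.0 in the submitters' processing notes) against mm10; whether intronic reads were counted is not given in the sources used here. Members and gene lists were chosen with earlier results of these data known. The libraries held 9049 and 13556 barcodes with 46398156 and 64324236 UMIs, of which 5966 and 10247 barcodes passed the limits on UMIs and mitochondrial share, and 432 and 1111 were removed as doublets (the highest Scrublet scores in scanpy 1.11.5, at 0.8% per 1000 barcodes). Cells were named from 15 marker lists; the marker *Ahsp* was not used here, and inhibitory classes also had to carry a *Gad1* or *Gad2* UMI and progenitor and excitatory classes at most 1. Counts were summed per library and class and 14409 genes fitted in 1 model with edgeR 4.0.16 (R 4.3.3, quasi-likelihood test, TMM factors, library as a block since both classes of a comparison come from the same libraries), tested on simulated data. Alternatives were RLE factors, DESeq2 1.42.0, no filter on low counts, no block, only the compared classes, a stricter gate, doublets kept, a window of 3000 to 12000 UMIs and each library alone. The SE is the log2 fold change divided by the square root of F. Named were, per comparison, up to 8 called channel genes and 3 companions in each direction with at least 10 CPM and the same direction in both libraries, and a fixed list of sodium, calcium and other main channel genes. Intervals and bounds cover counting error only. Promoter sequences and positions come from RefSeq, in which all 84 genes were found, and overlaps from GENCODE M39 by Ensembl ID. Some channel and companion genes are counted in the totals but are not reported by name here.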

Additional observations from a re-analysis of the deposited data

Results flagged for a closer look

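Cajal-Retzius-like cells (18 and 32 cells, 117066 and 304775 UMIs) and glial-fated-like cells (12 and 6 cells, 75006 and 29451 UMIs) were too few for the fit, and entered no comparison. With at least 3 UMIs in each library, 8 channel genes lay there above every library of the 13 fitted classes, which was not tested. These are 6 of 74 genes in Cajal-Retzius-like cells (8.11%, beside 3.67% of all 14409 genes) and 2 in glial-fated-like cells (2.70%, beside 1.54%). Without the limit on UMIs *Kcnk9* would join the first (1 and 4 UMIs) and *Kcnmb4* the second (6 and 2 UMIs), and the shares of all genes would be 4.07% and 3.35%. Cajal-Retzius cells are early-born neurons of the cortical surface, and 6 of these genes lay above the fitted classes in them. *Kcnh7*, of the ERG family, stood at 2315 and 1903 CPM (mean 2109), against at most 565 CPM in a fitted class. *Kcnb2* stood at 1623 and 984 CPM (mean 1303.7), against at most 566 CPM, and *Kcnip4* at 598 and 541 CPM (mean 569.7), against at most 346 CPM. The 3 others were lower in level: *Scn3b* had 137 and 98.4 CPM (mean 117.6), *Kcnip2* 51.3 and 82.0 CPM (mean 66.6) and *Kcna6* 34.2 and 49.2 CPM (mean 41.7, from 4 and 15 UMIs). *Kcna6* stood at 13.3 and 101.9 CPM in glial-fated-like cells (1 and 3 UMIs).

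In glial-fated-like cells 2 genes of A-type pores were higher than in any fitted class. *Kcnd2* stood at 3106 and 1596 CPM (mean 2351.1, 233 and 47 UMIs), against at most 1025 CPM in striatal projection neuron-like cells. *Kcnd3* stood at 213 and 169.8 CPM (mean 191.5, 16 and 5 UMIs), against at most 166 CPM in MGE interneuron-like cells.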

How the results depend on the processing

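Over 292 pairs of a named gene and a comparison, 2075 of 2194 values under alternative settings kept their direction and their side of the threshold, 92 lost the call, 26 gained one and 1 changed sign (*Kcnq5* in deep-layer against upper-layer cells, -0.014 with a stricter gate); the cause was not tested. Counts of called channel genes moved by over 1.5 times in 5 cases: 11 for IPC-like against RGC-like and 9 for MGE against CGE interneuron-like cells with a stricter gate, 14 for upper-layer against newborn and 21 for deep-layer against upper-layer cells in DESeq2, and 8 for mural-like against endothelial-like cells with those classes alone in the fit, where 9 genes were tested. A fit without the replicate block called 34 genes for MGE interneuron-like against excitatory cells, in place of 37; it moved no count by over 1.5 times and lost 8 calls of named genes. The largest sets of lost calls were 32 in DESeq2 and 28 with a stricter gate. Of 493 ratios from 1 library, 107 differed from the fitted value by more than the spread between the libraries. A test within 1 library has no residual degrees of freedom and was not run. The stricter gate for striatal projection neuron-like cells and the window of 3000 to 12000 UMIs for mural-like cells left under 20 cells, as did the planned comparison of glial-fated-like with RGC-like cells. Depth limits the small classes most, where a gene with no UMI over both libraries may still stand at several CPM.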
